A study of Mus musculus with 6 samples.

Results

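Late granule proteins of maturing neutrophils are represented here by 10 genes, Ltf, Camp, Ngp, Lcn2, Mmp8, Mmp9, Cd177, Fcnb, Chi3l3 and Chi3l1. They were taken by gene symbol out of the 34199 genes counted, and 9 of the 10 had enough reads to be tested (Chi3l1 did not). Expression was measured by RNA-seq in HOXA9-immortalized granulocyte-macrophage progenitors (iGMPs), a line of C57Bl/6 mouse bone marrow origin labelled Lys-GFP-ER-HoxA9. In every group the cells carried HOXA9 fused to an estrogen receptor domain and grew with stem cell factor, so that estradiol in the medium kept HOXA9 active and the progenitors dividing. The study asked what happens to the progenitor state when the histone chaperone CAF-1 is lost, with loss of HOXA9 as the reference for normal myeloid differentiation, and each of the 3 groups had 2 libraries. CAF-1 OFF cells received 500 µM IPTG for 24 h, which induced a hairpin RNA that targets Chaf1b, a CAF-1 subunit, in the presence of 150 ng/ml estradiol. Control cells were treated with IPTG for 24 h, with the same estradiol and at an IPTG dose the labels do not give. HOXA9 OFF cells were washed and kept without estradiol for 24 h, and whether they received IPTG, and which clone was used in any group, is not stated in the labels. The cells grow in culture with stem cell factor and no other cytokine named, which limits how far they model neutrophil maturation in marrow, and the labels do not say whether the libraries of a group came from separate cultures, so p-values measure only the spread between these libraries.

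Neutrophils fill their granules in waves as they mature. Myeloperoxidase and the serine proteases go into primary granules at the promyelocyte stage, lactoferrin, cathelicidin, lipocalin and collagenase go into secondary granules at the myelocyte and metamyelocyte stages, and gelatinase follows into tertiary granules. The protein a granule holds is largely set by when its gene is transcribed, and the late genes are known to depend on C/EBP transcription factors, above all C/EBPε.

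Reads assigned to genes numbered between 16773560 and 25170898 per library, so that 3 reads, the floor used here, corresponded to between 0.118 and 0.182 CPM (a read count set against the TMM-scaled depth of its library). In CAF-1 OFF, Chaf1b fell by 2.71 on the log2 scale (17.8 and 12.1 CPM, against 90.0 and 105 in control, FDR 0.0198). That call was lost with the replicate number as a block (FDR 0.0562), without CAF-1 OFF replicate 2 (FDR 0.0505) and without either control library (FDR 0.115 for each), with log2 fold changes from -2.81 to -2.44. Chaf1b was also lower in HOXA9 OFF (64.6 and 61.4 CPM, log2 fold change -0.63 ± 0.18, FDR 0.0396), a call that was likewise lost with the block (FDR 0.0566) and without any 1 of the control or HOXA9 OFF libraries (FDR 0.0747 to 0.201). The progenitor markers Cd34, Kit, Flt3, Sox4 and Meis1 were present in control and CAF-1 OFF, and all 5 fell in HOXA9 OFF. Ly6g and Retnlg, markers of mature neutrophils, were nearly missing from every library, at no more than 0.531 and 0.289 CPM. In such bulk libraries, a higher share of maturing cells and more transcript per cell cannot be told apart.

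The 120 bases before the start of 4 of the genes are shown, from the RefSeq promoter table and placed on mm9, because these genes mark the extremes of the results that follow. Ltf and Camp were barely detected in control and had large fold changes in HOXA9 OFF, Chi3l3 was the most abundant of the genes in HOXA9 OFF, and Mmp8 was the highest in CAF-1 OFF. Capitals mark matches on either strand to TTGCNNAA (a C/EBP word), CCAAT or GGAAGT (an ETS word), and the sequences read 5′ to 3′ towards the start. The Ltf window is chr9:110921676-110921795 (plus strand), the Camp window chr9:109751971-109752090 (minus strand), the Mmp8 window chr9:7558309-7558428 (plus strand) and the Chi3l3 window chr3:105970483-105970602 (minus strand).
Ltf: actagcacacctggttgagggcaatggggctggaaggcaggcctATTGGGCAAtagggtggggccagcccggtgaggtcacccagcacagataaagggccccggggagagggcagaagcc
Camp: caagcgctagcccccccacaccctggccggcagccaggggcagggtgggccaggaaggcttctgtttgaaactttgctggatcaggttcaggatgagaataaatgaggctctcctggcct
Mmp8: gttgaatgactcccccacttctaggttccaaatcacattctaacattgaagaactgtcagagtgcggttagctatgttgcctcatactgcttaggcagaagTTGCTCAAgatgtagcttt
Chi3l3: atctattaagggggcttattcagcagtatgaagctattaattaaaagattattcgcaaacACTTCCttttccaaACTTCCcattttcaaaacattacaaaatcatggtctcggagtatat
In Ltf the CCAAT box on the opposite strand (-76 to -72 from the start base, which is 0) overlaps a C/EBP word (-75 to -68). Mmp8 holds the C/EBP word TTGCTCAA at -19 to -12, and Chi3l3 holds 2 ETS words at -60 to -55 and at -46 to -41. Camp holds none of these words in its window.

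Across the full windows of the table, from 250 bases before to 50 after the start, 9 of the 10 genes had an entry and Mmp9 had none. The C/EBP word was found in 5 of the 9 (Ltf, Ngp, Lcn2, Mmp8 and Fcnb), against 10.8% of 32851 promoters in the table. CCAAT was found in 6 of 9 (37.4% of all promoters), GGAAGT in 4 of 9 (23.8%) and TATAAA in 3 of 9 (13.6%). The C/EBP word was thus shared by genes that rose in HOXA9 OFF and by Mmp8, which did not. A match is a description of letters only.

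Of the 9 tested genes, 8 rose in HOXA9 OFF against control, by 3.93-fold (Lcn2) to 201-fold (Chi3l3), and 0 fell. The exception was Mmp8, at 56.6 and 62.0 CPM in HOXA9 OFF and 70.1 and 40.5 CPM in control. A gene was called at a change of at least 1.5-fold and an adjusted p (FDR, the false discovery rate of Benjamini and Hochberg) below 0.05 in the edgeR quasi-likelihood test over all 12460 genes tested. By this rule 13% of all genes were called higher and 8.97% lower in HOXA9 OFF. The median log2 fold change of the 9 genes was 3.89, against -0.003 over all genes. In 8 of the 9, both HOXA9 OFF libraries lay above both controls, which held for 35.1% of all genes.

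In CAF-1 OFF against control, 0 of the 9 genes passed the edgeR quasi-likelihood test, where 0.0241% of all genes were called higher and 0.00803% lower. At an unadjusted p under 0.05 there were 5 of the 9 (Ngp, Mmp8, Cd177, Fcnb and Chi3l3), against 10.7% of all genes (1330 of 12460). The DESeq2 Wald test and the edgeR exact test each called 3 of them higher (Mmp8, Fcnb and Chi3l3). They called 1.31% and 1.68% of all genes higher, in this order. Both CAF-1 OFF libraries lay above both controls in 8 of the 9 genes, the exception being Lcn2, and this held for 20.1% of all genes. The median log2 fold change of the 9 genes was 1.26, against -0.004 over all genes.

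**Figure D1:**
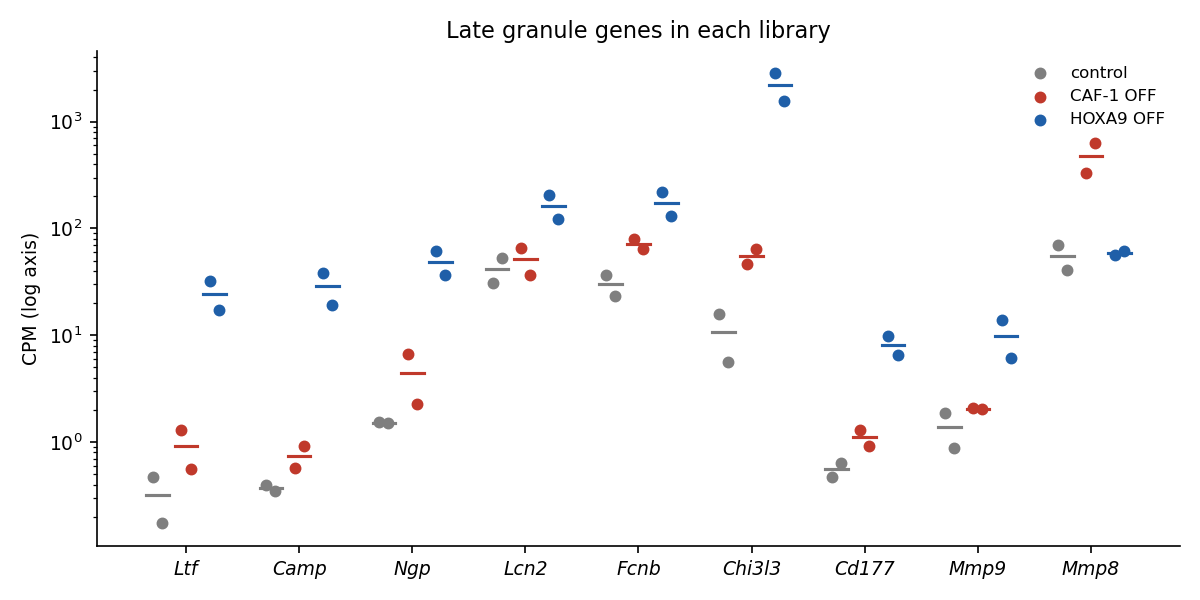
Expression of the 9 tested late granule genes in each library, in CPM on a log axis, with 1 point per library and a bar at the mean of each group (n = 2). Both HOXA9 OFF libraries lie above the other 4 in every gene but Mmp8, where the CAF-1 OFF libraries (332 and 630 CPM) are highest.

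Among the antimicrobial and metal-binding proteins, Ltf (chr9:110921796-110945270, plus strand) encodes lactoferrin, which binds iron. Its counts were 12 and 3 reads for control, 25 and 11 for CAF-1 OFF, and 661 and 282 for HOXA9 OFF, or 0.471 and 0.174, 1.30 and 0.557, and 31.9 and 17.1 CPM. Only the HOXA9 OFF libraries held more than a trace of Ltf, and they did not overlap the others. The log2 fold change in HOXA9 OFF was 6.13 ± 0.59 (SE), or 70.2-fold (FDR 0.00114), and that in CAF-1 OFF was 1.41 ± 0.66 (FDR 0.514). Without control replicate 1 these values were 7.08 and 2.37, and without CAF-1 OFF replicate 1 the value in CAF-1 OFF was 0.68.

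Camp (chr9:109749889-109751970, minus strand) encodes the precursor of the cathelicidin peptide CRAMP, which kills bacteria. Its levels were 0.393 and 0.348 CPM in control, 0.572 and 0.911 CPM in CAF-1 OFF and 38.5 and 19.2 CPM in HOXA9 OFF. Control and CAF-1 OFF were both close to the floor, at 6 to 18 reads per library. Camp rose 76.0-fold in HOXA9 OFF (log2 fold change 6.25 ± 0.48, FDR 0.000561), and its log2 fold change in CAF-1 OFF was 0.98 ± 0.56 (FDR 0.594). The value in HOXA9 OFF was 5.66 without HOXA9 OFF replicate 1.

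Ngp (chr9:110322254-110325514, plus strand), a cystatin-related protein of neutrophil granules, was measured at 1.53 and 1.51 CPM in control. It reached 6.65 and 2.28 CPM in CAF-1 OFF and 61.5 and 36.4 CPM in HOXA9 OFF. The CAF-1 OFF libraries lay above both controls but differed from each other by 2.92-fold. In HOXA9 OFF Ngp rose 32.1-fold (log2 fold change 5.0 ± 0.54, FDR 0.0016), and in CAF-1 OFF the log2 fold change was 1.55 ± 0.54 (FDR 0.382), or 0.58 without CAF-1 OFF replicate 1 and 2.14 without replicate 2.

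Lcn2 (chr2:32240153-32243317, minus strand) encodes lipocalin 2, which holds bacterial siderophores and so withholds iron. It was already present in control (30.7 and 53.1 CPM), stood at 66.1 and 37.0 CPM in CAF-1 OFF and reached 206 and 122 CPM in HOXA9 OFF. The CAF-1 OFF and control libraries overlapped, and the log2 fold change was 0.31 ± 0.39 (FDR 0.826). The rise in HOXA9 OFF was the smallest of the 8 called (3.93-fold, log2 fold change 1.98 ± 0.39, FDR 0.0115), and its call was lost without control replicate 1 (FDR 0.0557) or without HOXA9 OFF replicate 1 (FDR 0.0533).

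The 3 genes Camp, Ngp and Ltf lie in this order on chromosome 9, with 570284 bases between Camp and Ngp and 596282 between Ngp and Ltf. Of 15 other genes tested in the 1195382-base interval from Camp to Ltf, 4 were higher (Mtap4, Klhl18, Nbeal2 and Als2cl) and 1 was lower (Smarcc1) in HOXA9 OFF, with a median log2 fold change of 0.20. The 3 granule genes changed by more than the median of the genes between them, and that difference was not tested. These names were taken from the map after their values were seen.

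Among the lectins and chitinase-like proteins, Chi3l3 (chromosome 3, minus strand, Chil3 in newer annotation) encodes Ym1, a chitinase-like lectin made by neutrophil precursors and by alternatively activated macrophages. Its counts were 402 and 97 reads in control (15.8 and 5.63 CPM), 894 and 1256 reads in CAF-1 OFF (46.4 and 63.6 CPM) and 58768 and 25888 reads in HOXA9 OFF (2840 and 1570 CPM). The 3 groups did not overlap, and the order was control, CAF-1 OFF, HOXA9 OFF. In HOXA9 OFF its log2 fold change of 7.65 ranked 16 of 12460 genes (FDR 0.000561). In CAF-1 OFF it was 5.02-fold above control (log2 fold change 2.33 ± 0.48), which missed the threshold in the quasi-likelihood test (FDR 0.195) and passed in the exact test (FDR 0.000436). Without control replicate 1 the log2 fold changes of Chi3l3 were 8.60 in HOXA9 OFF and 3.29 in CAF-1 OFF. They were 7.12 and 1.81 without control replicate 2.

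Chi3l3 has a near copy, Chi3l4, on the same chromosome, and their transcripts were 94.4% identical over 1538 aligned bases. Of the 50-base words of the Chi3l3 transcript, 18.5% also occurred in Chi3l4, and reads from such stretches cannot be assigned to either gene. The GENCODE model of Chi3l3 on mm9 (chr3:105950472-106022425) spans Chi3l4 (chr3:106004408-106022425), and the annotation the authors counted with is not given in the sources used here. The fold change of Chi3l3 is therefore uncertain as to which copy it counts. Chi3l4 itself was given few reads (2 and 0 for control, 2 and 0 for CAF-1 OFF, 29 and 20 for HOXA9 OFF). These reads cannot settle the question, since the models overlap and shared stretches cannot be assigned.

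Fcnb (chr2:27931898-27940405, minus strand) encodes ficolin B, a lectin that recognises sugars on microbes. By single-cell RNA-seq at later times, it is named in the study among early granulocyte genes, transient after HOXA9 inactivation and persistently raised in CAF-1 OFF. Its levels were 36.5 and 23.5 CPM in control, 79.3 and 64.9 CPM in CAF-1 OFF and 220 and 130 CPM in HOXA9 OFF. As for Chi3l3, the groups did not overlap and CAF-1 OFF lay between the other two. Fcnb rose 5.80-fold in HOXA9 OFF (log2 fold change 2.54 ± 0.31, FDR 0.00219) and its level in CAF-1 OFF was 2.39-fold that of control (log2 fold change 1.26 ± 0.30, FDR 0.249).

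Chi3l1 (chr1:136078753-136086758, plus strand), another chitinase-like lectin of late granules, was not tested. It had 9 reads in HOXA9 OFF replicate 1, 1 read in CAF-1 OFF replicate 1 and 0 in the other 4 libraries, which allows up to between 0.118 and 0.182 CPM in those. A change of Chi3l1 was not detectable at this depth.

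Cd177 (chr7:25529004-25545330, minus strand) encodes a surface protein of neutrophils that is stored in late granules and binds PECAM1 on endothelium. It was measured at 0.471 and 0.639 CPM in control, 1.30 and 0.911 CPM in CAF-1 OFF and 9.79 and 6.55 CPM in HOXA9 OFF. Reads numbered 11 and 12 in control and 18 and 25 in CAF-1 OFF, so these levels rest on few reads. Cd177 rose 14.8-fold in HOXA9 OFF (log2 fold change 3.89 ± 0.40, FDR 0.00138), and its log2 fold change in CAF-1 OFF was 1.01 ± 0.41 (FDR 0.453). Its transcript shared 3.3% of its 50-base words with BC049730.

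The matrix metalloproteases of the late granules parted ways. Mmp9 (chr2:164766280-164781350, plus strand) encodes gelatinase B of tertiary granules, and its levels were 1.89 and 0.871 CPM in control, 2.08 and 2.03 CPM in CAF-1 OFF and 13.8 and 6.06 CPM in HOXA9 OFF. Mmp9 thus moved with the other genes, rising 7.03-fold in HOXA9 OFF (log2 fold change 2.81 ± 0.51, FDR 0.00853), and in CAF-1 OFF its log2 fold change was 0.54 ± 0.52 (FDR 0.762). The value in HOXA9 OFF was 3.50 without control replicate 1 and 2.10 without HOXA9 OFF replicate 1. That in CAF-1 OFF was 1.23 without control replicate 1 and 0.13 without control replicate 2.

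Mmp8 (chr9:7558429-7568486, plus strand) encodes neutrophil collagenase of the secondary granules. Its counts were 1785 and 697 reads in control (70.1 and 40.5 CPM), 6395 and 12445 reads in CAF-1 OFF (332 and 630 CPM) and 1174 and 1022 reads in HOXA9 OFF (56.6 and 62.0 CPM). The HOXA9 OFF libraries fell within the range of the controls, whereas both CAF-1 OFF libraries lay above all 4 others. The log2 fold change in HOXA9 OFF was 0.10 ± 0.35 (FDR 0.866), and without control replicate 2 it was -0.24.

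In CAF-1 OFF Mmp8 was at 481 ± 211 CPM (SD, n = 2), 8.67-fold the control mean of 55.3 ± 21.0 CPM by the fit (log2 fold change 3.12 ± 0.37). It ranked 12 of 12460 genes by unadjusted p (7.3e-05) and 46 by log2 fold change, but missed the threshold (edgeR quasi-likelihood FDR 0.0757). Over 17 other settings the log2 fold change ranged from 2.60 to 3.57 and the FDR from 9.5e-19 (DESeq2) to 0.357 (without control replicate 2). Without CAF-1 OFF replicate 1 the call was made (FDR 0.0312). The 4 tested genes within 250000 bases of Mmp8, chosen after the data were seen, were not called in CAF-1 OFF. Of these, Mmp27, the nearest, had a log2 fold change of 1.71 ± 0.43 (FDR 0.268), and Mmp12, a macrophage elastase, one of 1.56 ± 0.92 (FDR 0.607).

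**Figure D2:**
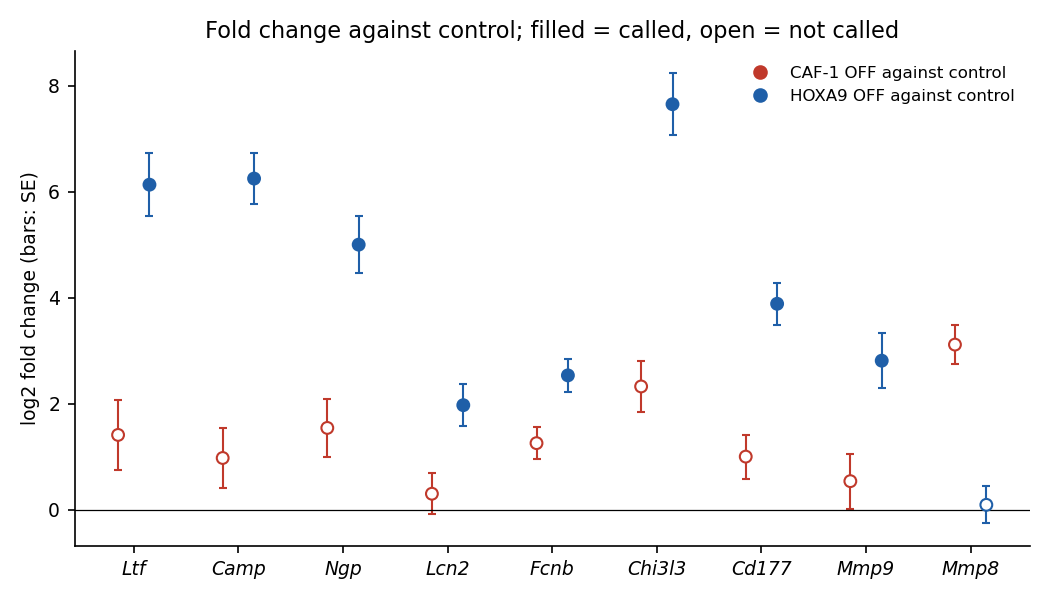
Log2 fold change against control of the 9 tested late granule genes after CAF-1 or HOXA9 loss, with bars of 1 SE from the edgeR fit over all 6 libraries. Filled points passed the call and open points did not: all CAF-1 OFF points are open, and Mmp8 is the open point in HOXA9 OFF (0.10).

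The groups were then compared directly, since both comparisons with control share the same control libraries. In CAF-1 OFF against HOXA9 OFF, all 9 tested genes were called, 8 lower and Mmp8 alone higher, against 12.6% of all genes lower and 9.56% higher. Mmp8 was 8.12-fold higher in CAF-1 OFF (log2 fold change 3.02 ± 0.37, FDR 0.00235). Chi3l3 was 40.0-fold lower (log2 fold change -5.32 ± 0.52, FDR 0.00115), Camp 38.6-fold lower (FDR 0.000787) and Ltf 26.3-fold lower (FDR 0.00185). Smaller gaps were seen for Ngp (11.0-fold, FDR 0.00362), Cd177 (7.37-fold, FDR 0.00287) and Mmp9 (4.83-fold, FDR 0.0166). The smallest were Lcn2 (3.18-fold, FDR 0.0199) and Fcnb (2.42-fold, FDR 0.0191). Over all settings run, the log2 fold changes ranged from -2.74 to -1.55 for Mmp9, from -2.15 to -1.23 for Lcn2 and from -1.61 to -0.84 for Fcnb. Calls for Lcn2, Mmp9 and Fcnb were lost without CAF-1 OFF replicate 2 or HOXA9 OFF replicate 1, which left 5 lower, and Mmp9 was lost without CAF-1 OFF replicate 1, which left 7. Of the values that kept their call, the log2 fold change of Ngp (-3.46 with all libraries) moved to -4.42 without CAF-1 OFF replicate 1 and to -2.86 without replicate 2, that of Ltf (-4.72) to -5.45 without CAF-1 OFF replicate 1, and that of Camp (-5.27) to -4.67 without HOXA9 OFF replicate 1.

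Levels of different genes were set side by side as CPM per kilobase of transcript. In HOXA9 OFF the mean level per kilobase was highest for Chi3l3, at 1430 ± 584 (SD, n = 2), followed by Lcn2 (179 ± 64.9) and Fcnb (150 ± 54.4), which did not differ beyond their spread. Camp (48.0 ± 22.7), Ngp (40.2 ± 14.6) and Mmp8 (24.2 ± 1.56) came next, and Ltf (8.94 ± 3.82), Mmp9 (3.13 ± 1.72) and Cd177 (3.01 ± 0.845) were lowest. The libraries of Camp and Ngp overlapped, as did those of Mmp9 and Cd177. The order was different in CAF-1 OFF, where Mmp8 led at 196 ± 85.9 per kilobase, ahead of Fcnb (61.6 ± 8.70), Lcn2 (56.3 ± 22.5) and Chi3l3 (35.7 ± 7.90). The libraries of Lcn2 overlapped those of Fcnb and those of Chi3l3. The other 5 tested genes were between 0.339 and 3.67 in CAF-1 OFF. In control, Lcn2 (45.8 ± 17.3) was followed by Fcnb (25.6 ± 7.86) and Mmp8 (22.5 ± 8.53), which overlapped, and Chi3l3 stood at 6.96 ± 4.67. Lcn2, Fcnb and Mmp8 were thus already present in control, while Ltf, Camp, Mmp9 and Cd177 were below 1 CPM per kilobase in control.

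The make-up of late granule transcripts differed accordingly. Summed over the 10 genes, the level was 158 and 126 CPM in control, 536 and 802 CPM in CAF-1 OFF and 3470 and 1970 CPM in HOXA9 OFF. Of these reads, Mmp8 supplied 62.0% and 78.5% in CAF-1 OFF, against 44.4% and 32% for control and 1.63% and 3.15% for HOXA9 OFF. Chi3l3 supplied 81.6% and 79.7% in HOXA9 OFF. Without Chi3l3 the sums were 142 and 121 CPM for control, 490 and 739 CPM for CAF-1 OFF and 638 and 399 CPM for HOXA9 OFF, and the last pair of groups overlapped. Without Mmp8 and Chi3l3 they were 71.9 and 80.2 CPM in control, 157 and 109 CPM in CAF-1 OFF and 581 and 337 CPM in HOXA9 OFF, and the groups did not overlap.

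**Figure D3:**
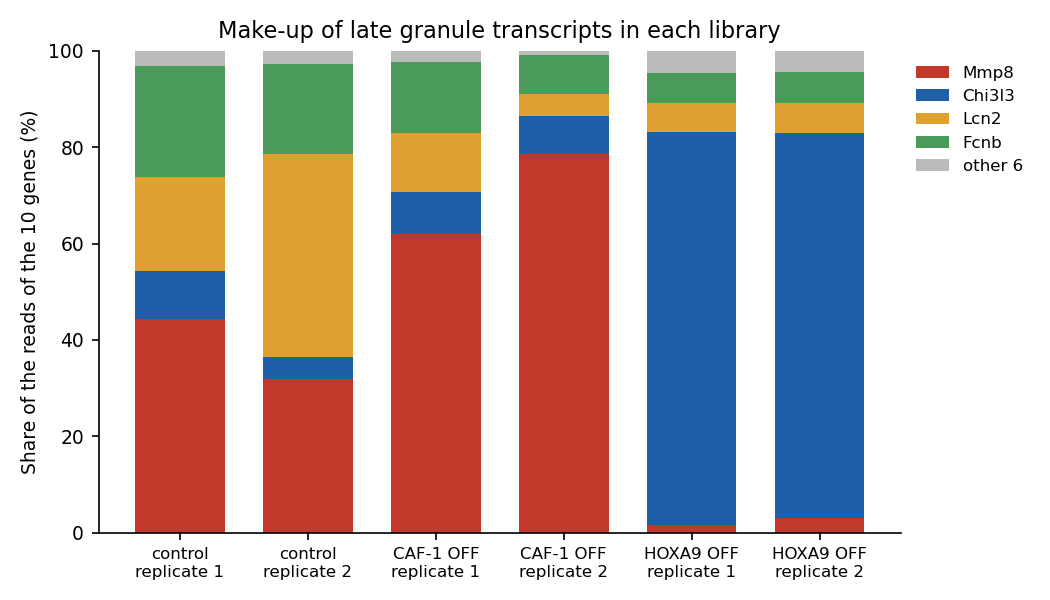
Share of the reads of the 10 late granule genes that each gene took, as stacked bars in percent, for each of the 6 libraries. Mmp8 takes most of the bar in both CAF-1 OFF libraries (62.0% and 78.5%) and Chi3l3 in both HOXA9 OFF libraries (81.6% and 79.7%).

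The libraries of a group also differed in these genes. In HOXA9 OFF, 8 of the 9 were higher in replicate 1 than in replicate 2, with a median log2 ratio of 0.76 over the 9, where 49.1% of all genes were higher in replicate 1 and their median was -0.004. The exception was again Mmp8, with a ratio of 0.914. In control 7 of the 9 were higher in replicate 1 (median log2 ratio 0.63), and in CAF-1 OFF 6 of the 9 (0.29), where 49.9% of all genes were higher in replicate 1 in each of these groups. Mmp8 was among the 3 that were lower there, as were Camp and Chi3l3.

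Other genes of neutrophil maturation were taken from a list of 26 that holds none of the 10 genes, of which 17 were tested. Lyz1 and Stfa3 passed the filter on low counts only through HOXA9 OFF, so their rise there followed from the filter. The other 15 all rose in HOXA9 OFF, with a median log2 fold change of 2.74, where 13% of all genes were called higher. S100a8 and S100a9, whose products form calprotectin, rose by 6.55 ± 0.41 (FDR 0.000322) and 6.38 ± 0.43 (FDR 0.000433) on the log2 scale. Olfm4, a granule protein of a subset of neutrophils, rose by 7.0 ± 0.77 (FDR 0.00168) and Cybb, the oxidase subunit of the granule membrane, by 7.46 ± 0.66 (FDR 0.000893). Hp, haptoglobin of late granules, rose by 3.33 ± 0.30 (FDR 0.000938). In CAF-1 OFF 0 of the 17 were called by the quasi-likelihood test. At an unadjusted p under 0.05 there were 9 (Adam8 lower and the other 8 higher), against 10.7% of all genes. DESeq2 and the exact test each called 7 higher, where they called 1.31% and 1.68% of all genes higher. S100a8 (2.81 ± 0.39, quasi-likelihood FDR 0.0976) and Anxa1 (1.52 ± 0.19, quasi-likelihood FDR 0.0865) were among these 7. Directly against HOXA9 OFF, 12 of those 15 were lower in CAF-1 OFF and 0 were higher, against 12.6% and 9.56% of all genes.

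A list of primary granule genes, which are transcribed earlier, was set beside them. It also holds Ms4a3, which the study names, with Fcnb and Elane, among genes associated with early granulocytes. Of 6 tested, 2 rose in HOXA9 OFF, Ms4a3 (log2 fold change 1.31 ± 0.25, FDR 0.00994) and Prss57, a serine protease (0.97 ± 0.21, FDR 0.0158), and Ctsg, cathepsin G, fell by 0.68 on the log2 scale (FDR 0.00778). Mpo, Elane and Prtn3 had log2 fold changes of 0.53, 0.76 and 0.59 and were not called. The median log2 fold change of the list was 0.68, against 3.89 for the late granule genes. In CAF-1 OFF 0 of the 6 were called by the quasi-likelihood test, 3 had an unadjusted p under 0.05 (10.7% of all genes did), and DESeq2 and the exact test each called Ms4a3 alone.

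Regulators of granule genes were examined next. Of 8 tested, 5 rose in HOXA9 OFF: Cebpd (log2 fold change 2.12 ± 0.26, FDR 0.00229), Cebpe (1.73 ± 0.25, FDR 0.00372), Sfpi1, which encodes PU.1 (1.55 ± 0.17, FDR 0.00162), Runx1 (1.48 ± 0.13, FDR 0.000946) and Cebpb (0.74 ± 0.19, FDR 0.0289). Gfi1 and Myb fell by 0.80 (FDR 0.00353) and 0.68 (FDR 0.00436), and Cebpa, at 265 and 250 CPM against 233 and 273 in control, was not called. In CAF-1 OFF 0 of the 8 were called by the quasi-likelihood test, and 1 of 8 had an unadjusted p under 0.05, a share near the 10.7% of all genes. This was Cebpe, at 212 and 197 CPM against 112 and 78.1 in control (log2 fold change 1.10 ± 0.24, FDR 0.223), which DESeq2 and the exact test called. The level of Cebpe in CAF-1 OFF lay between those in control and HOXA9 OFF (385 and 247 CPM).

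**Figure D4:**
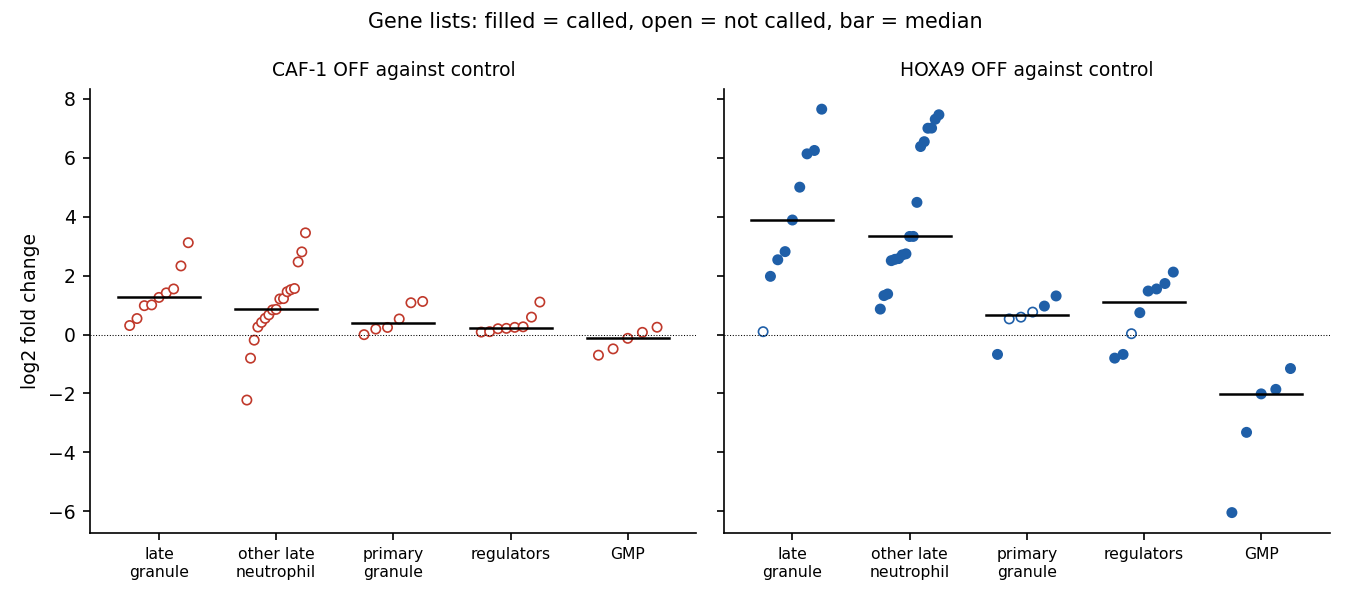
Log2 fold change against control of each tested gene in 5 gene lists, for CAF-1 OFF (left) and HOXA9 OFF (right), with filled points called, open points not called and a bar at the list median. The late granule genes have medians of 1.26 (the value of Fcnb) and 3.89, and the primary granule list has medians of 0.38 and 0.68.

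Partners and relatives of the granule proteins were mostly silent. Of 11 listed, 4 could be tested. Pecam1, the endothelial ligand of CD177 (log2 fold change 0.86 ± 0.10, FDR 0.00175), and Lrp1, a lactoferrin receptor (1.94 ± 0.35, FDR 0.00823), rose in HOXA9 OFF. Chi3l4 was called higher too, but it passed the filter only through HOXA9 OFF. The lipocalin receptor gene Slc22a17 was not called. Timp1 and Timp3, which encode metalloprotease inhibitors, had 0 reads in every library, and Timp2 reached no more than 0.275 CPM. Almost no reads were thus assigned to these 3 inhibitors in any group, and not in CAF-1 OFF alone. In CAF-1 OFF 0 of the 4 were called by the quasi-likelihood test, DESeq2 or the exact test, and 1 (Pecam1) had an unadjusted p under 0.05, where 10.7% of all genes did.

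Markers of other cell types moved in the same libraries, and their part in the results was not tested. Of 7 monocyte and macrophage genes tested, 5 rose and 1, Ccr2, fell in HOXA9 OFF, with summed levels of 1560 and 1690 CPM in control, 1600 and 2050 CPM in CAF-1 OFF and 2160 and 3260 CPM in HOXA9 OFF. In control and CAF-1 OFF the sums were carried mainly by F13a1, which was not called, and by Ccr2. In HOXA9 OFF F13a1 (1160 and 2030 CPM) was followed by Mpeg1 (507 and 517 CPM), and Ccr2 stood at 67.2 and 212 CPM. Among the genes that rose, Csf1r, the receptor for macrophage colony-stimulating factor, was at 4.05 and 4.24 CPM in control and 215 and 292 CPM in HOXA9 OFF (log2 fold change 5.94 ± 0.26, FDR 0.000103), and Irf8, Cd68, Mpeg1 and Ly86 had log2 fold changes of 2.49, 2.45, 2.06 and 1.57. The sum over the list was higher in HOXA9 OFF replicate 2, mainly through F13a1 and Ccr2. Of the 5 genes that rose, Csf1r and Cd68 were higher in replicate 2 (ratios of replicate 1 to replicate 2 of 0.735 and 0.712). Mpeg1 and Irf8 were near level (0.98 and 1.02), and Ly86 was higher in replicate 1 (1.31). Since macrophages can also make Ym1, genes of alternatively activated macrophages were set beside Chi3l3. Retnla had 0 reads in all 6 libraries. Mrc1 was at 0.354 and 0.0581 CPM in control, 1.51 and 2.18 CPM in CAF-1 OFF and 1.11 and 0.485 CPM in HOXA9 OFF, and it was not called (log2 fold change 3.01 ± 0.74 in CAF-1 OFF, FDR 0.259, and 1.83 ± 0.77 in HOXA9 OFF, FDR 0.12).

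Of 5 mast cell, basophil and eosinophil genes tested, the eosinophil granule genes Prg2 and Epx rose in HOXA9 OFF (log2 fold changes 2.49 ± 0.26 and 5.72 ± 0.47, FDR 0.00142 and 0.000663). The summed level of this list was 1130 and 747 CPM in control, 1730 and 1210 CPM in CAF-1 OFF and 5390 and 4000 CPM in HOXA9 OFF, and Fcer1a was near 0. The B cell gene Ebf1 fell in HOXA9 OFF, from 94.0 and 98.5 CPM in control to 2.51 and 3.03 CPM (FDR 5.6e-05), and was at 121 and 115 CPM with CAF-1 OFF. The B cell genes Cd79a (log2 fold change 0.33 ± 0.59, FDR 0.708) and Vpreb1 (-0.65 ± 0.67, FDR 0.506) were not called in HOXA9 OFF. Among 4 erythroid and megakaryocyte genes tested 1 rose (Itga2b), with sums of 24.9 and 29.0 CPM in control, 75.1 and 36.4 CPM with CAF-1 OFF, and 65.5 and 76.9 CPM with HOXA9 OFF. In CAF-1 OFF the edgeR quasi-likelihood test called 0 of these genes or of the progenitor genes. Their counts at an unadjusted p under 0.05 were 0 of 7 (monocyte and macrophage), 1 of 1 (Mrc1), 2 of 5 (mast cell, basophil and eosinophil), 1 of 3 (Ebf1, Cd79a and Vpreb1, with Ebf1 under it), 2 of 4 (erythroid and megakaryocyte) and 1 of 5 (progenitor), against 10.7% of all genes. DESeq2 called 1 of these genes higher, the platelet factor gene Pf4, and the exact test called Pf4 and Mrc1 higher and Meis1 lower.

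The 5 other genes whose profile over the 6 libraries lay nearest to the median profile of the 9 late granule genes were Xdh, C1rl, Nlrp12, Cyp4f18 and Rap1gap2. They were found by Euclidean distance between log2 CPM values centred on control (0.88 to 1.06) among 9557 genes on no list. Xdh, which encodes xanthine dehydrogenase, had means of 10.7 ± 0.264, 18.4 ± 0.371 and 120.5 ± 1.06 CPM in control, CAF-1 OFF and HOXA9 OFF (SD, n = 2). Cyp4f18, a cytochrome P450 that acts on leukotriene B4, was measured at 3.18 ± 0.061, 5.38 ± 0.628 and 45.9 ± 9.64 CPM (SD, n = 2). Since likeness to the granule genes chose them, their levels are a description only.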

How the data were processed

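RNA-seq was performed on 2 libraries per group, and per the labels and methods of the study the authors used STAR for alignment to mm9 and HTSeq for counting. The deposited files hold unnormalized counts for each symbol, with 5 tally lines that were left out (reads with no feature came to between 5.95% and 8.26% of the gene counts). The annotation and strand setting are not given in the sources used here. HTSeq by default leaves out reads that map to several places, which lowers genes with near copies.

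Tests used edgeR 4.0.16 in R 4.3.3 (filterByExpr, TMM scaling, quasi-likelihood test, 1 mean per group over all 6 libraries), leaving 12460 genes. DESeq2 1.42.0 was an alternative, and limma 3.58.1 was loaded by edgeR. Standard errors came from the F statistic, and the script was tested on simulated counts. With 2 libraries against 2, an exact permutation test of a single gene cannot go below p = 0.333. The pair of libraries in each group differed by more than sampling noise (chi-square per degree of freedom at least 20.5), and floors of 3 reads cover counting error only.

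The genes and lists were chosen with earlier results of these data known. Named genes are the 10 genes, genes of the lists, Chaf1b and the 5 nearest profiles with a mean of at least 5 CPM, and genes near the Mmp8, Camp and Ltf loci were added after their values were seen. Some genes of the lists are not reported here. Coordinates are 1-based from GENCODE on NCBIM37 (mm9), and promoters come from the RefSeq table of GRCm38.p6, each matched by sequence once in NCBIM37.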

Additional observations from a re-analysis of the deposited data

How the results depend on the processing

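Of 151 values computed for the 9 genes in HOXA9 OFF under the alternatives, 147 kept their direction and call, as did 136 of 151 in CAF-1 OFF and 141 of 151 in CAF-1 OFF against HOXA9 OFF. The count of late granule genes called higher in CAF-1 OFF was 0, but 3 by the DESeq2 Wald test, 3 by the exact test of edgeR, 4 without a filter on low counts and from 0 to 1 without each library in turn. The cause was not tested. These settings also raised the calls over all genes from 3 to 163 (DESeq2), 209 (exact test) and 287 (no filter), and from 1 to 29, 34 and 91 for lower genes. At 2-fold and FDR 0.01 the calls over all genes went from 1622 higher and 1118 lower to 707 and 280 in HOXA9 OFF, and from 1191 and 1564 to 362 and 586 in CAF-1 OFF against HOXA9 OFF, and in HOXA9 OFF to 1006 and 596 without control replicate 2 and to 598 lower without HOXA9 OFF replicate 1. Higher calls in CAF-1 OFF against HOXA9 OFF went from 1191 to 668 and 792 without HOXA9 OFF replicate 1 and 2. In HOXA9 OFF the count of late granule genes was 8, and from 7 to 8 without each library in turn. Directly between CAF-1 OFF and HOXA9 OFF the count of lower genes was 8, but 5 at 2-fold and FDR 0.01, and from 5 to 8 without each library in turn, while Mmp8 was called higher under every setting run. A group left with 1 library was assumed to vary like the others. Directions reversed for values that were not called: Lcn2 in CAF-1 OFF ranged from -0.18 (without CAF-1 OFF replicate 1; -0.037 without control replicate 1) to 0.76, and Mmp8 in HOXA9 OFF from -0.24 (without control replicate 2) to 0.54, when 1 library was left out. Replicate numbers share no stated origin, and deviations of same-numbered libraries correlated at -0.178 (CAF-1 OFF and control), 0.456 (HOXA9 OFF and control) and 0.033, so pairing was not assumed. With the replicate block the counts of called late granule genes stayed at 0, 8, 1 and 8, and over all genes in CAF-1 OFF calls went from 3 and 1 to 2 and 0, the lost lower gene being Chaf1b. With crossed numbers, an alternative chosen after seeing the data, they were 62 and 9, of which 2 were late granule genes. At a mean of at least 5 CPM, 7 of the genes could be tested and 6 were called in HOXA9 OFF. Depth limits Chi3l1, which could not be tested, and the control levels of Ltf, Camp and Cd177.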
